A study of Homo sapiens with 6 samples.

Results

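The transcription factors HNF4A, HNF4G, FOXA1, FOXA2, CDX1, CDX2, GATA6 and KLF5, which set the identity of gut and liver epithelium, were examined in colon carcinoma cells depleted of gankyrin. The members were chosen by gene name, and every probe set that the platform annotation pairs with that gene alone was taken. This gave 14 probe sets for 7 of the 8 genes, out of 54675 probe sets on the array. HNF4A was not analysed here. Of the 14 probe sets, 13 passed a filter that left out the lowest 40% of probe sets by mean signal, and all 7 of the analysed genes had at least 1 such probe set. The dimmer CDX2 probe set fell below the filter.

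The arrays carried RNA of SW480 cells, a long-established line from a human colon carcinoma, grown in serum-containing medium. Cells of the first group had carried a short hairpin RNA (shRNA) against gankyrin for 4 days (n = 3 arrays), and cells of the second a non-targeting control shRNA for 4 days (n = 3 arrays). Both groups thus received an shRNA, and no group without one is part of the comparison. The labels name shRNA against gankyrin without its sequence, and the sample titles do not give the number of hairpins. The labels also do not say whether the replicates were separate cultures, so the p-values rest on array-to-array scatter that may be wholly technical.

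HNF4A and HNF4G are nuclear receptors that bind as dimers to the promoters and enhancers of lipid, bile acid and transport genes in liver, kidney and gut. FOXA1 and FOXA2 are forkhead proteins that can bind closed chromatin and open it for other factors, CDX1 and CDX2 are homeodomain proteins that specify intestine along the gut tube, GATA6 is a zinc finger factor of endoderm and of proliferating colon epithelium, and KLF5 is a zinc finger factor of dividing crypt cells. These proteins bind each other's regulatory regions, so the loss of a single factor in mice can change gut identity. Gankyrin, the product of PSMD10, helps to assemble the regulatory particle of the proteasome and also binds the retinoblastoma protein, CDK4 and MDM2.

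Promoter sequences of 4 of the 7 analysed members, taken from the RefSeq promoter table (GRCh38.p14), were searched. The promoter of HNF4G was not searched. CDX2, KLF5 and FOXA1 are shown because these stretches hold short motifs of the kind bound by the members themselves. Each sequence is the 250 bases before the annotated transcript start, 5′ to 3′ on the gene's strand. Capitals mark matches, on either strand, to these motifs. Forkhead proteins were searched with TGTTTAC, zinc fingers of the GATA type with AGATAA, caudal proteins with TTTATNG, KLF and SP proteins with the GC box GGGCGG, HNF4 with CAAAGTCCA, and the TATA box with its core letters TATAAA.
CDX2 (chr13:27969316-27969565, minus strand): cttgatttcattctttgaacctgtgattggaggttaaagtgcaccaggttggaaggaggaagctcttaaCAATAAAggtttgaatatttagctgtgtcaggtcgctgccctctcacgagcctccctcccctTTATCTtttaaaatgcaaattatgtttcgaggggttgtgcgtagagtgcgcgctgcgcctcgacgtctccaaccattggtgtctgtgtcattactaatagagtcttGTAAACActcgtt
KLF5, upstream start (chr13:73054726-73054975, plus strand): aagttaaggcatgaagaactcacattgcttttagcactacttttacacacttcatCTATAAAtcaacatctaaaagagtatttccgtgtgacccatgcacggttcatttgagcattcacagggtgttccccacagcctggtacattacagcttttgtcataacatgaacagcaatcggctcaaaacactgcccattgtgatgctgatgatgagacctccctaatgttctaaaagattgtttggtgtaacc
KLF5, downstream start (chr13:73058755-73059004, plus strand): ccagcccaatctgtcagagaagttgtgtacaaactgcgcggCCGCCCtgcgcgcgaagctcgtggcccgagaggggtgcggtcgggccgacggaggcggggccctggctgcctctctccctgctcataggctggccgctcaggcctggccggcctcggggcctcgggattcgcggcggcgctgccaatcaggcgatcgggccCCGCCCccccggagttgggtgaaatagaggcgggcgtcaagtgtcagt
FOXA1 (chr14:37595250-37595499, minus strand): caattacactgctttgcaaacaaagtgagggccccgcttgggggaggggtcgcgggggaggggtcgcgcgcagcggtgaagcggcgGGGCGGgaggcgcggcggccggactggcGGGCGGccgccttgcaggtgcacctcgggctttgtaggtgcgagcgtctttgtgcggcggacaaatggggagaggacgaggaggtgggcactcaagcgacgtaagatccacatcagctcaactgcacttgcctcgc
The CDX2 stretch held 1 forkhead, 1 GATA and 1 CDX match. Of all 35116 promoter stretches of this length, 2.98% held the forkhead motif, 9.17% the GATA motif and 8.93% the CDX motif. KLF5 has a pair of annotated starts with unlike sequence: the upstream stretch had a GC content of 40.8% and held a CDX match that overlaps a TATA box match, while the downstream stretch had a GC content of 70.8% and held 2 GC boxes. The FOXA1 stretch held 2 GC boxes and none of the other motifs. GC boxes were present in 42.6%, TATA box letters in 10.7% and the HNF4 letters in 0.325% of all stretches, and the GATA6 stretch held no match to any of the 6 motifs. A match is a string of letters in this window and was not tied to binding in these cells.

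The target of the shRNA was low on each knockdown array. Signals are on a scale taken as log2 from the range of the deposited values. PSMD10 had log2 signals of 6.58, 6.47 and 6.30 on gankyrin shRNA arrays, against 10.19, 10.23 and 10.15 on control shRNA arrays (log2 fold change -3.74 ± 0.08 SE, limma adjusted p = 6.81e-09). A sentence of the series design names NFIL3 as the knockdown target. NFIL3 was at 9.12, 9.06 and 9.03 on gankyrin shRNA arrays, against 9.21, 9.32 and 9.47 on control shRNA arrays. This log2 fold change of -0.26 passed an adjusted p of 0.05 in limma over genes, as 22.5% of all genes did. Over probe sets it did not pass (limma adjusted p = 0.0701), and the pass over genes was lost at 6 other settings. The array medians lay between 4.19 and 4.25. Control replicate 3 stood apart, with a mean correlation of 0.989 with the other control arrays where the other 5 arrays had 0.993 to 0.997 with their own group, so values without it are given where they change a member's call or size, or the counts of a list. To describe dim signals, 65 probe sets of 48 genes restricted to tissues such as lens, olfactory epithelium and pituitary were pooled, and 95% of them had a mean of at most 4.80, here called the low-end value. Of 16 colon epithelial markers, 12 lay above that value, EPCAM, KRT18, LGALS4 and TSPAN8 among them, while CDH17, GPA33, PHGR1 and CDX2 lay at or below it.

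None of the 7 measured lineage factors passed the test in the comparison of gankyrin shRNA with control shRNA. With the threshold for a call at an adjusted p of 0.05 in limma, 0 of 7 were called, against 22.5% of the 14199 genes tested, and 1 of 7 had an unadjusted p under 0.05, against 35.3% of all genes. Of the 13 probe sets past the filter, 0 were called, against 10.6% of the 32759 probe sets tested, and 2 had an unadjusted p under 0.05, against 27.8%. The log2 fold changes of the 7 genes ran from -0.17 to 0.28, with a median of -0.07 and a median size of 0.13, where the corresponding values for all genes were -0.02 and 0.14. The groups were fully separated for 1 of the 7 genes, against 40.3% of all genes, and for 3 of the 13 probe sets, against 35.5% of all probe sets. In bulk RNA, a change in the level per cell and a change in the share of cells that make the transcript cannot be told apart.

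**Figure D1:**
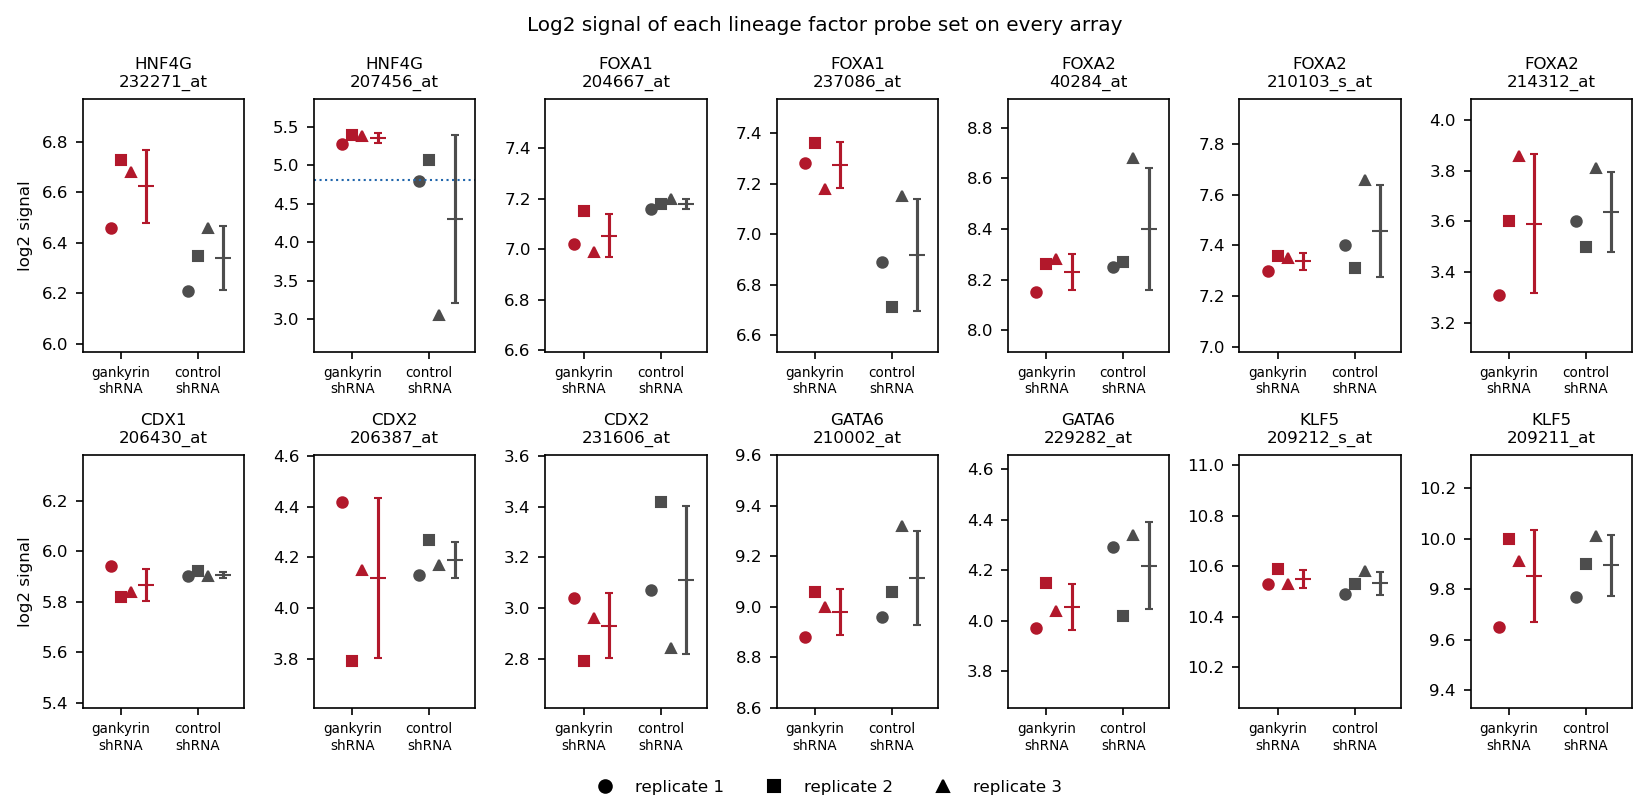
Log2 signal of each of the 14 probe sets of the 7 lineage factors (vertical axes, each with its own range) on gankyrin shRNA arrays (red, left) and control shRNA arrays (grey, right). Symbols mark the replicate number, bars the mean ± SD (n = 3 each), and the dotted line in the HNF4G 207456_at panel the low-end value of 4.80. The groups overlap or nearly touch in most panels, and control replicate 3 is low for HNF4G on 207456_at and high for FOXA2 and GATA6.

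HNF4G, the paralogue of HNF4A found mainly in gut and kidney, had the largest difference of the 7. Its brighter probe set gave 6.46, 6.73 and 6.68 on gankyrin shRNA arrays, against 6.21, 6.35 and 6.46 on control shRNA arrays. The lowest knockdown value equalled the highest control value, so the groups touched. The log2 fold change was 0.28 ± 0.10 SE, with a 95% interval of 0.05 to 0.51, and missed the threshold (limma adjusted p = 0.0771). Its dimmer probe set gave 5.27, 5.39 and 5.38 on gankyrin shRNA arrays, against 4.79, 5.06 and 3.05 on control shRNA arrays. Here all knockdown values lay above all control values, but the mean difference of 1.05 ± 0.47 SE rested mainly on control replicate 3 and did not pass (limma adjusted p = 0.198).

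Without control replicate 3, both HNF4G probe sets were called as higher. The brighter one changed by 0.34 ± 0.09 SE (limma adjusted p = 0.0104 over genes), at a setting where 29.3% of all genes passed, and the dimmer one by 0.42 (limma adjusted p = 0.0171 over probe sets), where 21.7% of probe sets passed. HNF4G also passed after quantile normalization (0.32, adjusted p = 0.0475) and after centring each array on the median of the tested genes (0.38, adjusted p = 0.0119), and it did not pass after centring on the median of all probe sets (0.27, adjusted p = 0.130). The sign was positive at each of these settings. Over all 16 other settings the adjusted p of HNF4G ran from 0.0104 to 0.253 and its log2 fold change from 0.22 to 0.67, the highest with both probe sets averaged (0.665, adjusted p = 0.0667). Exact permutation of the 6 arrays (two-sided) gave p = 0.2 for the brighter and p = 0.1 for the dimmer probe set, 0.1 being the smallest value that 3 arrays per group can reach.

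FOXA1 gave opposite signs on its 2 probe sets, which have nearly the same mean signal. The first, 204667_at, gave 7.02, 7.15 and 6.99 on gankyrin shRNA arrays, against 7.16, 7.18 and 7.20 on control shRNA arrays. The groups did not overlap, the knockdown values being lower by a small margin (log2 fold change -0.13 ± 0.08 SE, 95% interval -0.30 to 0.05, limma adjusted p = 0.285). The second, 237086_at, gave 7.28, 7.36 and 7.18 on gankyrin shRNA arrays, against 6.89, 6.71 and 7.15 on control shRNA arrays. All knockdown values lay above all control values (0.36 ± 0.12 SE, limma adjusted p = 0.109). This probe set was called without control replicate 3 (0.47, limma adjusted p = 0.00141), where 21.7% of probe sets passed. The same probe set was called after centring on the median of the tested genes (0.46, limma adjusted p = 0.0277). After quantile normalization it was not (0.40, limma adjusted p = 0.0706).

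Within each array, the 204667_at signal of FOXA1 minus its 237086_at signal was -0.26, -0.21 and -0.19 on gankyrin shRNA arrays, against 0.27, 0.47 and 0.05 on control shRNA arrays. The difference was below 0 on all 3 knockdown arrays and above 0 on all 3 control arrays, a shift of -0.48 on the log2 scale (exact two-sided permutation test, p = 0.1, the smallest possible; adjusted p = 0.7 over 7 pairs of probe sets of the same gene). The other 6 pairs, of HNF4G, FOXA2, GATA6 and KLF5, had exact p-values of 0.3 or more.

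FOXA2, which in gut and liver shares many sites with FOXA1, had values of 8.15, 8.26 and 8.28 on gankyrin shRNA arrays, against 8.25, 8.27 and 8.68 on control shRNA arrays. The groups overlapped, and the difference was -0.17 ± 0.11 SE (95% interval -0.42 to 0.08, limma adjusted p = 0.307), or -0.03 without control replicate 3, the highest of the arrays. Its 210103_s_at probe set changed by -0.12 and its 214312_at probe set, at a mean of 3.61 and thus below the low-end value, by -0.05, neither passing. GATA6 showed the same layout, with 8.88, 9.06 and 9.0 on gankyrin shRNA arrays, against 8.96, 9.06 and 9.32 on control shRNA arrays (-0.13 ± 0.09 SE, 95% interval -0.34 to 0.07, limma adjusted p = 0.345). Without control replicate 3 the GATA6 difference was also -0.03. The dim GATA6 probe set changed by -0.16 and did not pass.

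The caudal homeobox genes showed no change past the threshold. CDX1, which marks crypt and colon epithelium, was at 5.94, 5.82 and 5.84 on gankyrin shRNA arrays, against 5.90, 5.92 and 5.90 on control shRNA arrays. The knockdown values lay on both sides of the tight control values (log2 difference -0.04 ± 0.08 SE, 95% interval -0.23 to 0.15, limma adjusted p = 0.782). CDX2, the factor whose loss in mouse gut lets stomach-like epithelium form, was at 4.42, 3.79 and 4.15 on gankyrin shRNA arrays, against 4.13, 4.27 and 4.17 on control shRNA arrays. Both CDX2 probe sets had means below the low-end value of 4.80, at 4.16 and 3.02, so these arrays give little room to see a fall of CDX2 (-0.07 ± 0.15 SE, 95% interval -0.40 to 0.26, limma adjusted p = 0.781).

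KLF5 was the most tightly measured member. Its brighter probe set gave 10.53, 10.59 and 10.53 on gankyrin shRNA arrays, against 10.49, 10.53 and 10.58 on control shRNA arrays. All 6 values lay between 10.49 and 10.59, with a log2 fold change of 0.02 ± 0.05 SE and a 95% interval of -0.09 to 0.12 (limma adjusted p = 0.839). Its dimmer probe set gave 9.65, 10.00 and 9.91 on gankyrin shRNA arrays, against 9.77, 9.90 and 10.01 on control shRNA arrays, and again the groups overlapped.

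**Figure D2:**
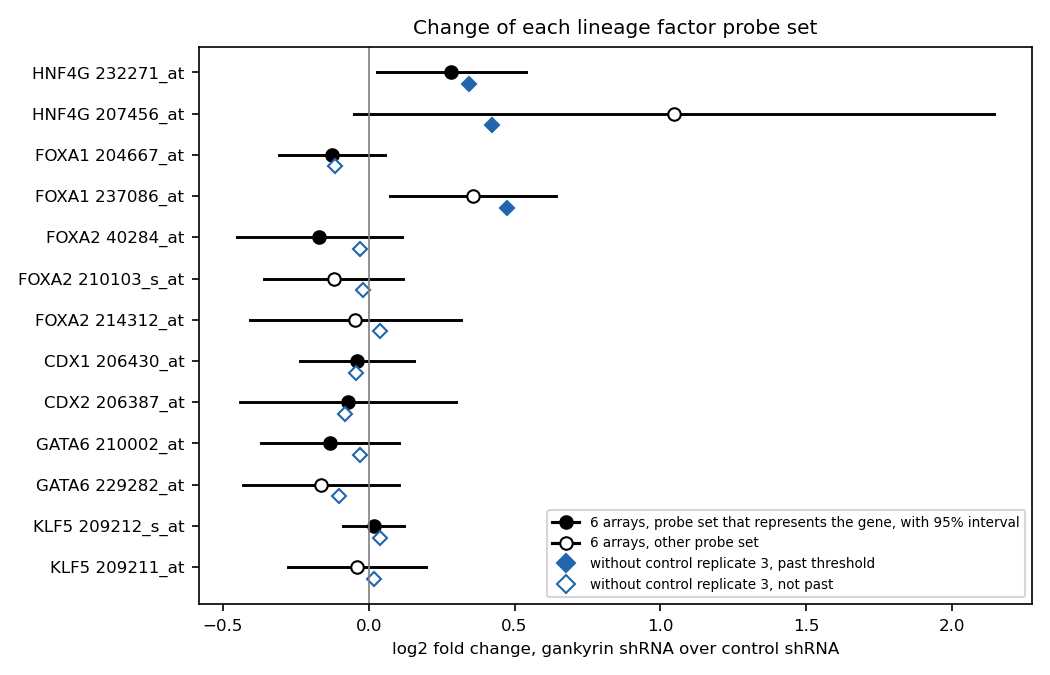
Log2 fold change (gankyrin shRNA over control shRNA) of the 13 probe sets past the filter, with limma 95% intervals from 6 arrays (circles, filled where the probe set represents its gene) and the value without control replicate 3 (blue diamonds, filled where the probe set was called). With all arrays none was called; without control replicate 3 both HNF4G probe sets and FOXA1 237086_at were called, and FOXA2 40284_at and GATA6 210002_at moved to -0.03.

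Likeness to each member was measured as Pearson's r of log2 values over the 6 arrays, among the 4266 genes whose values span at least 0.5, and the 2 genes of highest r were taken. These r values describe the arrays and carry no test, since the best of so many genes is high by selection. The genes most like HNF4G were IFT74 (r = 0.994) and EEF1AKMT2 (r = 0.987), and those most like FOXA1 were KRT8P12 (r = 0.990) and SIKE1 (r = 0.987). FOXA2 was followed by IPO13 (r = 0.994) and OAF (r = 0.993), and GATA6 by RBM6 (r = 0.989) and CARMIL3 (r = 0.986); in all 4 of these the highest value was that of control replicate 3, as in FOXA2 and GATA6 themselves. CDX1 was most like CTRL (r = 0.947) and COXFA4L2 (r = 0.906), CDX2 most like QPRT (r = 0.963) and CACNA1S (r = 0.949), and KLF5 most like LINC01023 (r = 0.967) and SFRP5 (r = 0.965).

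Several other transcription factors of gut and liver were called where the 7 members were not; the difference between the lists was not tested. Of 30 tested factors on a list of partners, regulators and lineage factors, 4 rose and 8 fell in gankyrin shRNA cells, or 12 of 30 against 22.5% of all genes, with a median log2 fold change of -0.055, against -0.02 for all genes. After centring on the median of the tested genes the median was 0.045. Without control replicate 3, where 29.3% of all genes passed, it was also positive, at 0.03 (6 rises and 9 falls). The 3 further calls without that array were SOX9, SPDEF and HES1, and SOX9 was then 0.22 higher where it was at -0.03 with all arrays. PROX1, a homeobox factor of liver and lymphatic development, had 4.27, 4.76 and 3.94 on gankyrin shRNA arrays, against 6.14, 5.94 and 5.84 on control shRNA arrays (-1.65 ± 0.18 SE, limma adjusted p = 0.000287). The knockdown values of PROX1 lay below the low-end value, so the size of the fall is uncertain.

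Several nuclear receptors that act in the same tissues fell, and the 3 with the smallest limma p-values are given first. NR2F1, an orphan receptor of the COUP-TF type that can compete with HNF4 for its sites, had 5.29, 5.21 and 5.28 on gankyrin shRNA arrays, against 6.13, 6.15 and 6.46 on control shRNA arrays (-0.99 ± 0.11 SE, limma adjusted p = 0.00027). NR5A2, or LRH-1, a receptor of bile acid and crypt genes, had 5.61, 5.61 and 5.38 on gankyrin shRNA arrays, against 6.18, 6.33 and 6.52 on control shRNA arrays (-0.81 ± 0.11 SE, limma adjusted p = 0.00107). PPARA, the fatty acid receptor that drives fat oxidation in liver, had 5.89, 5.91 and 5.58 on gankyrin shRNA arrays, against 6.59, 6.62 and 7.06 on control shRNA arrays (-0.96 ± 0.14 SE, limma adjusted p = 0.00137). In all 3 the groups were well separated. Averaging the 3 probe sets of NR5A2 ended its call (adjusted p = 0.0950).

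NR2F6, a further COUP-TF type receptor, fell by 0.37 on the log2 scale on its representing probe set, while its other probe set moved the opposite way at 0.32, and the average of both was -0.03 (adjusted p = 0.930). ELF3, an epithelial ETS factor, fell by 0.43, and all 3 of its probe sets were lower, 1 of them past the threshold of the probe set fit. The ELF3 call was lost where probe sets ending in _s_at or _x_at were avoided (-0.23, adjusted p = 0.223). The remaining falls of this list were BCL6 (-0.33, limma adjusted p = 0.0109) and the nuclear receptor gene NR0B2 (-0.34, limma adjusted p = 0.0355). They are named here after their values were seen, and another BCL6 probe set was at 0.07. The 4 factors of this list that rose, named here after their values were seen, were GRHL2, NEUROG3, ATOH1 and PPARG. GRHL2, a grainyhead factor of epithelial junctions, rose by 0.43 ± 0.08 SE, and the secretory lineage factors NEUROG3 and ATOH1 rose by 0.49 ± 0.10 and 0.49 ± 0.12 (SE) from control means of 5.18 and 4.94, near the low end of the scale. PPARG, the fat cell and colon receptor, rose by 0.32 ± 0.08 SE.

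Among paralogues in the FOX, CDX, GATA and KLF/SP families, falls outnumbered rises, as they did over all genes (14.3% lower, 8.13% higher). Of 37 tested, 1 rose and 11 fell, or 32.4% against 22.5% of all genes, with a median log2 fold change of -0.20. After centring on the median of the tested genes the counts were 1 and 7, and the median was -0.10. Without control replicate 3 they were 1 and 11, the median was -0.08, and KLF9 was called in place of FOXL1. At that setting 29.3% of all genes passed. FOXD1, a forkhead factor of stromal development, had 6.36, 6.17 and 6.12 on gankyrin shRNA arrays, against 6.96, 7.03 and 7.21 on control shRNA arrays (-0.85 ± 0.10 SE, limma adjusted p = 0.000413). KLF6, a Kruppel-like factor induced early by growth signals, had 9.47, 9.63 and 9.42 on gankyrin shRNA arrays, against 9.95, 10.09 and 10.47 on control shRNA arrays (-0.66 ± 0.12 SE, limma adjusted p = 0.00328). KLF5's own values overlapped between the groups, as given above.

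KLF16, KLF10 and FOXJ1 fell by 0.62, 0.32 and 0.49 on the log2 scale. The knockdown mean of FOXJ1, 4.74, lay below the low-end value, and its call was lost without gankyrin shRNA replicate 2 or 3 (adjusted p = 0.0519 and 0.0600). The sole rise of the family list was FOXP1, a forkhead repressor, at 0.43 ± 0.05 SE on its representing probe set. Of 8 FOXP1 probe sets past the filter, 3 were higher and 5 lower, from -0.15 to 0.81, and the gene changed by -0.15 (adjusted p = 0.493) where probe sets ending in _s_at or _x_at were avoided. A direction for FOXP1 as a gene is therefore not given.

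**Figure D3:**
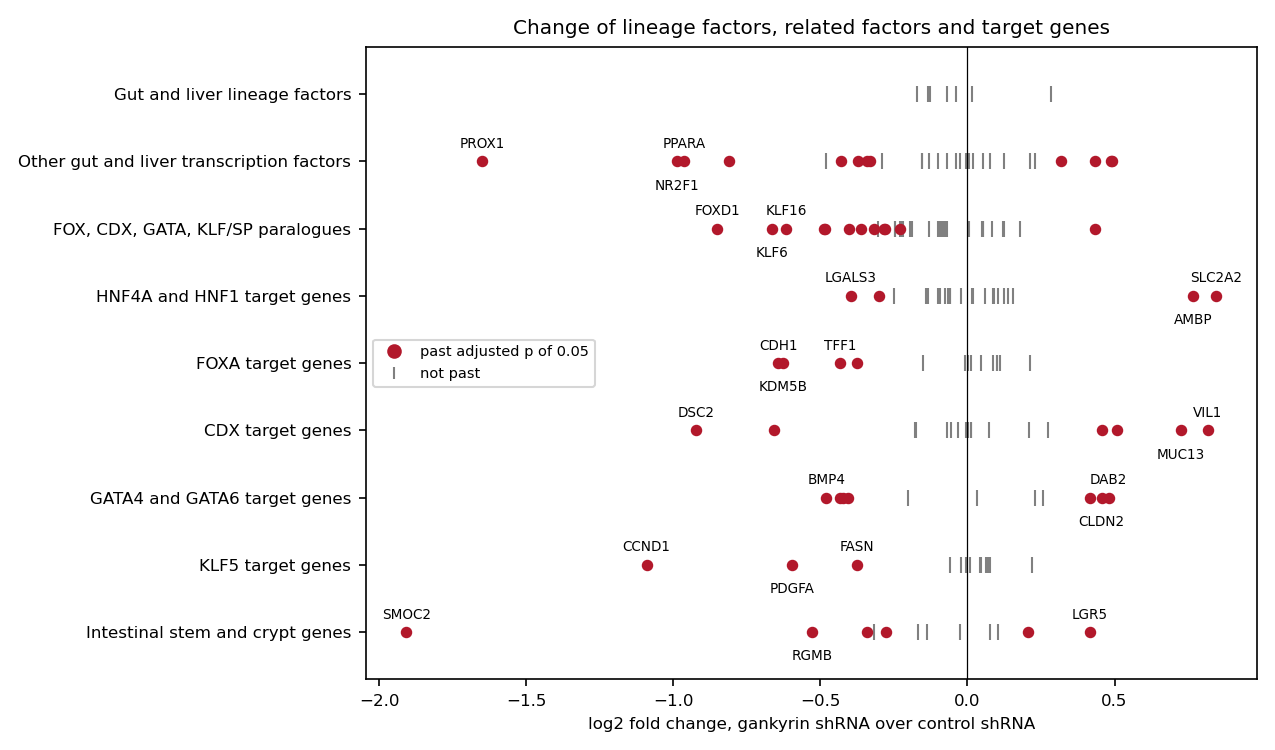
Log2 fold change (gankyrin shRNA over control shRNA, horizontal axis) of each tested gene in 9 gene lists (rows); red circles passed an adjusted p of 0.05 in limma and grey ticks did not. The 7 lineage factors, all ticks, lie between -0.17 and 0.28, while PROX1 at -1.65 and SMOC2 at -1.91 are the lowest called genes.

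Genes commonly described as targets of the members, or of the related factors HNF1 and GATA4, were then listed by factor. Binding to these genes was not measured here. These lists were written by hand from common knowledge of liver and gut, with earlier results of these data known, and share some genes. Of 24 tested targets of HNF4A and HNF1, 2 rose and 2 fell, or 16.7% against 22.5% of all genes, with a median of -0.04. Without control replicate 3, where 29.3% of all genes passed, the median turned positive (0.0242, 3 rises and 3 falls). CYP3A4 and DPP4 were the further calls at that setting. The median was also positive with centring on the median of the tested genes (0.0583, 3 rises and 1 fall). SLC2A2, the GLUT2 glucose transporter, had 8.91, 8.99 and 8.92 on gankyrin shRNA arrays, against 8.06, 8.20 and 8.02 on control shRNA arrays (0.85 ± 0.07 SE, limma adjusted p = 4.96e-05). AMBP, the precursor of the plasma protein bikunin, had 5.53, 5.58 and 5.46 on gankyrin shRNA arrays, against 4.46, 4.96 and 4.85 on control shRNA arrays (0.77 ± 0.13 SE, limma adjusted p = 0.00284). The groups of both genes were apart, but the control mean of AMBP, 4.76, lay below the low-end value, so the size of its rise is uncertain. LGALS3, or galectin-3, and the tetraspan protein gene TM4SF4 fell by 0.40 and 0.30. The TM4SF4 call was lost without gankyrin shRNA replicate 1 (adjusted p = 0.0633) and with centring on the median of the tested genes (adjusted p = 0.114). Of the 42 annotated genes of this list, 26 lay at or below the low-end value, and of 14 hepatocyte markers 11 did so, ALB, APOA1 and FGB among them. The hepatocyte markers above it were SERPINA1 at 12.81, CYP3A4 at 6.205 and TTR at 6.18 (means over all arrays).

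Of 18 tested CDX targets of the intestine, 4 rose and 2 fell, or 33.3% against 22.5% of all genes, with a median of 0.01. With centring on the median of the tested genes the counts were 5 and 2, and the median was 0.11. VIL1, which encodes the microvillus protein villin, had 9.02, 9.03 and 8.98 on gankyrin shRNA arrays, against 8.30, 8.29 and 7.99 on control shRNA arrays (0.82 ± 0.09 SE, limma adjusted p = 0.000233). MUC13, a transmembrane mucin, had 7.47, 7.70 and 7.51 on gankyrin shRNA arrays, against 6.82, 6.83 and 6.85 on control shRNA arrays (0.73 ± 0.08 SE, limma adjusted p = 0.000369). HEPH, a copper oxidase for iron export, and CLDN2, a pore-forming claudin, rose by 0.51 and 0.46.

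KRT20, the keratin of mature colonocytes, went the other way among the CDX targets, with 9.97, 10.19 and 10.06 on gankyrin shRNA arrays, against 10.68, 10.75 and 10.76 on control shRNA arrays (-0.66 ± 0.06 SE, limma adjusted p = 0.000107). DSC2, a desmosomal cadherin, had 7.52, 7.81 and 7.82 on gankyrin shRNA arrays, against 8.49, 8.72 and 8.71 on control shRNA arrays (-0.92 ± 0.10 SE, limma adjusted p = 0.000252). Markers of differentiated colon moved in both directions while CDX1 and CDX2 did not pass. Over the 15 tested markers of colon epithelial identity, 3 rose and 5 fell, or 53.3% against 22.5% of all genes, with a median of -0.07. The median was 0.03 with centring on the median of the tested genes (4 rises and 5 falls). KRT18 was a further fall without control replicate 3, where 29.3% of all genes passed.

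FOXA targets that passed in the main fit were all lower. Of 14 tested, 0 rose and 4 fell, or 28.6% against 22.5% of all genes, although the list's median was 0.01. Over all genes, 8.13% rose and 14.3% fell. Without control replicate 3, where 29.3% of all genes passed, 1 target rose, SPDEF, and 4 fell. The counts were also 1 and 4 after quantile normalization and with centring on the median of the tested genes. The median with that centring was 0.11. CDH1, or E-cadherin, had 6.63, 6.63 and 6.57 on gankyrin shRNA arrays, against 7.16, 7.21 and 7.39 on control shRNA arrays (-0.64 ± 0.09 SE, limma adjusted p = 0.000863). AGR2, a disulfide isomerase of mucus-producing cells, had 11.44, 11.38 and 11.40 on gankyrin shRNA arrays, against 11.66, 11.76 and 11.93 on control shRNA arrays (-0.38 ± 0.06 SE, limma adjusted p = 0.0024). The histone demethylase gene KDM5B fell by 0.63 and the trefoil gene TFF1 by 0.43, TFF1 to a knockdown mean of 4.74, below the low-end value. The TFF1 call was lost without gankyrin shRNA replicate 1 or 2 (adjusted p = 0.0571 and 0.0620).

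Of 11 tested targets of GATA4 and GATA6, 3 rose and 4 fell, or 63.6% against 22.5% of all genes, with a median of 0.03. These calls include CLDN2, TFF1 and LGR5, which also stand on the CDX, FOXA and crypt lists, respectively. The LGR5 call was lost at 10 other settings and the TFF1 call at 2. With the replicate block, or with centring on the median of all probe sets, 2 rose and 4 fell. With centring on the median of the tested genes, 4 rose and 4 fell, and the median was 0.13. BMP4, a ligand that GATA6 restrains in colon tumour cells, had 9.21, 9.29 and 9.16 on gankyrin shRNA arrays, against 9.67, 9.67 and 9.76 on control shRNA arrays (-0.48 ± 0.06 SE, limma adjusted p = 0.000536). DAB2, an endocytic adaptor of early endoderm, had 7.98, 8.10 and 8.08 on gankyrin shRNA arrays, against 7.64, 7.56 and 7.52 on control shRNA arrays (0.48 ± 0.07 SE, limma adjusted p = 0.00163). The laminin genes LAMC1 and LAMB1 fell by 0.42 and 0.41, and the LAMB1 call was lost without gankyrin shRNA replicate 1 or 2 (adjusted p = 0.108 and 0.0867) and with no intensity trend in the model (adjusted p = 0.0605).

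Of 13 tested KLF5 targets, 0 rose and 3 fell, or 23.1%, near the 22.5% of all genes. With centring on the median of the tested genes the counts were 1 and 3, and the median was 0.11, against 0.01 as deposited. CCND1, or cyclin D1, had 6.82, 6.88 and 6.75 on gankyrin shRNA arrays, against 7.74, 7.89 and 8.09 on control shRNA arrays (-1.09 ± 0.10 SE, limma adjusted p = 7.91e-05). PDGFA, a growth factor, fell by 0.60 on its representing probe set, while its other probe set was at 0.05, and the call was lost with both averaged (adjusted p = 0.0631). FASN, the fatty acid synthase, fell by 0.38, but its other probe set was at 0.07, and the call was lost without gankyrin shRNA replicate 1, 2 or 3 (adjusted p = 0.0649 to 0.0789) and with both probe sets averaged (-0.15, adjusted p = 0.338).

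Crypt and stem cell genes, which lie downstream of Wnt signalling and of several members, were split. Of 12 tested, 2 rose and 4 fell, or 6 of 12 against 22.5% of all genes, with a median of -0.15. With centring on the median of the tested genes the counts were 2 and 2, and the median was -0.0517. Without control replicate 3 they were 3 and 4, the median was -0.0908, and SOX9 was the further rise. At that setting 29.3% of all genes passed. SMOC2, a secreted matrix protein of crypt base cells, had 3.93, 4.07 and 4.11 on gankyrin shRNA arrays, against 5.86, 5.99 and 5.98 on control shRNA arrays (-1.91 ± 0.10 SE, limma adjusted p = 3.29e-06). The knockdown values of SMOC2 lay below the low-end value, and its second probe set changed by -0.21 and did not pass, so the call was lost where probe sets ending in _s_at or _x_at were avoided (adjusted p = 0.260). LGR5, the receptor that marks crypt base stem cells, had 6.04, 6.25 and 6.47 on gankyrin shRNA arrays, against 5.91, 5.98 and 5.62 on control shRNA arrays (0.42 ± 0.13 SE, limma adjusted p = 0.0467), and the call was lost at 10 of 16 other settings, the replicate block (adjusted p = 0.0694) among them.

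RGMB, a BMP co-receptor, fell by 0.53, and the Wnt target genes EPHB3 and RNF43 fell by 0.34 and 0.28. The EPHB3 and RNF43 calls were lost without gankyrin shRNA replicate 1, 2 or 3 and without control replicate 2 (adjusted p = 0.0519 to 0.0816 and 0.0511 for EPHB3, 0.0551 to 0.107 and 0.0554 for RNF43). Both were also lost with centring on the median of the tested genes (adjusted p = 0.109 for EPHB3 and 0.0525 for RNF43), EPHB3 with probe sets averaged (adjusted p = 0.181) and RNF43 with no intensity trend (adjusted p = 0.0635). CD44, a hyaluronan receptor, rose by 0.21, with 11 of 12 probe sets higher, and the call was lost with no intensity trend (adjusted p = 0.0623).

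**Figure D4:**
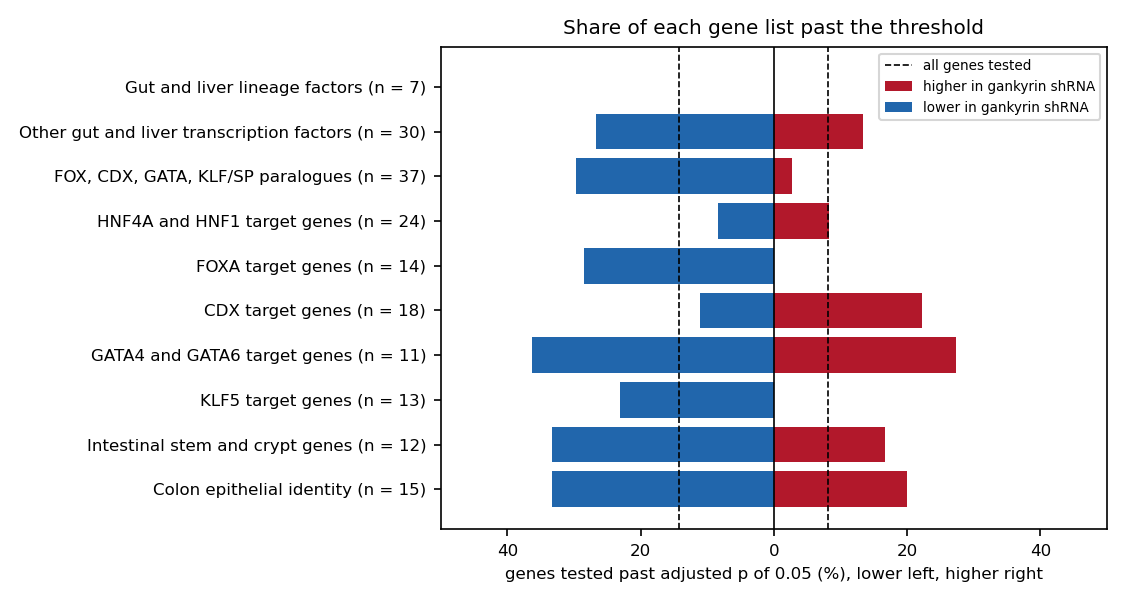
Share of the tested genes of each list (rows, with the number tested) that passed an adjusted p of 0.05 in limma, higher in gankyrin shRNA cells to the right (red) and lower to the left (blue). Dashed lines mark the shares over all 14199 genes, 8.13% higher and 14.3% lower; the 7 lineage factors have no bar.

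Markers of other cell types were mostly at the low end. Of the fibroblast, leukocyte and endothelial markers, 9 of 10, 7 of 10 and 7 of 10 annotated genes lay at or below 4.80, the leukocyte gene PTPRC and the fibroblast genes COL1A2, COL3A1 and LUM among them. The markers above it were COL1A1 at 7.12 for fibroblasts, LYZ at 12.29, ITGAM at 5.72 and CD3E at 4.97 for leukocytes, and ESAM at 8.25, PECAM1 at 5.08 and TEK at 4.89 for endothelium (means of 6 arrays). Their mean log2 level per array was 3.98 to 4.00 for fibroblast markers on gankyrin shRNA arrays, against 3.81 to 3.85 on control shRNA arrays. For leukocyte markers it was 4.70 to 4.76 on gankyrin shRNA arrays, against 4.60 to 4.71 on control shRNA arrays, and for endothelial markers 3.73 to 3.89 on gankyrin shRNA arrays, against 3.77 to 3.85 on control shRNA arrays. The fibroblast marker FAP rose by 0.84, a size that is uncertain since its control mean of 4.28 lay below the low-end value, and the endothelial marker ESAM fell by 0.67. Hepatocyte markers had 0 of 8 tested genes past the threshold, against 22.5% of all genes (1 at an unadjusted p under 0.05 in limma). Without control replicate 3, CYP3A4 of the hepatocyte list fell (-0.34, limma adjusted p = 0.00697) and ITGAM of the leukocyte list rose (0.46, limma adjusted p = 0.0024). At that setting 29.3% of all genes passed.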

How the data were processed

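The authors' deposited table gives a log2 signal for each probe set on each array, from one-colour Affymetrix arrays hybridised with biotin-labelled cRNA from 6 ug of total RNA, per the labels' protocols. The sources used here do not state the scale; the values, 1.29 to 13.68, were taken as base 2 logarithms from their range. MAS5 is named in the submitters' processing notes, with no role or version; the summary method is not given in the sources used here, and depth has no meaning for arrays, where 3 arrays per group limit the precision. Deposited values were used without further normalization.

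Gene names came from the platform annotation, updated by Entrez identifier to RefSeq (GRCh38.p14) symbols: 41091 probe sets had 1 gene, 1801 several and 11721 are not named here; 19735 genes matched and 40 kept the older symbol. A filter removed 62 control probe sets and, of the others, the lowest 40% by mean (limit 3.6). A gene's brightest probe set with no other gene stood for it. The test was limma (version 3.58.1, R version 4.3.3; lmFit, eBayes with trend, two-sided, Benjamini-Hochberg over all genes or, for further probe sets, over all probe sets; threshold 0.05). "Rose" and "fell" denote calls. The model was also run on simulated data, drawn as independent normal values with no outlying array and no shared shift. That run cannot vouch for calls that depend on control replicate 3 or on centring.

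The members and lists were chosen with earlier results of these data known. Named genes were all members, PSMD10, NFIL3, up to 6 called genes of smallest p from each list of factors or targets, and the 2 genes most like each member. Array batches are not given in the labels. The labels do not say whether same-numbered arrays were paired, and the main fit treated all arrays as unpaired. Deviations from the group means of same-numbered arrays correlated at 0.0198, 0.108 and -0.0055. For arrays of unlike number the range was -0.0704 to 0.0481. With 3 arrays per group these values cannot show whether arrays were handled in pairs.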

Additional observations from a re-analysis of the deposited data

How the results depend on the processing

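No member was called at 13 of 16 other settings of the gene fit. The exceptions, with 1 member called each, were quantile normalization, centring on the median of the tested genes (a setting chosen after seeing the data) and leaving out control replicate 3; in each that member was HNF4G. Leaving out an array gave 0 to 1 member genes and 0 to 3 member probe sets called; centring on the median of the tested genes gave 2 member probe sets. The replicate block left 0 member genes and 0 member probe sets called and 3049 genes over the whole table, against 3189 without it. Over the whole table, leaving out an array gave 1732 to 4161 calls, the lowest values, 1734, 1743 and 1732, without gankyrin shRNA replicate 1, 2 or 3. Related transcription factors called numbered 24, with 15 when probe sets were averaged and 14 to 27 without an array; 22 target genes were called, with 18 to 25 without an array. Centring on the median of the tested genes gave a median log2 fold change of 0.08 over all genes, against -0.02 as deposited, and 60.7% of calls as rises, against 36.2%; centring on the median of all probe sets gave 30.5%.

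Without an array, CDX2 ran from -0.22 to 0.095, FOXA2 probe set 214312_at from -0.18 to 0.0933 and KLF5 probe set 209211_at from -0.11 to 0.0617. Other values of members changed sign, none of them called there: FOXA1 was at 0.12 (0.115) with probe sets averaged, CDX1 at 0.06 and CDX2 at 0.03 with centring on the tested genes, and CDX2 at 0.10 (0.095) without gankyrin shRNA replicate 2. KLF5 was at -0.0075 after quantile normalization, -0.0117 with probe sets averaged, -0.04 with _s_at probe sets avoided, and -0.0033 and -0.005 without gankyrin shRNA replicate 2 and control replicate 1. Its dimmer probe set 209211_at was at 0.06, 0.0617 and 0.0183 with centring on the tested genes, without gankyrin shRNA replicate 1 and without control replicate 3. FOXA2 probe set 214312_at was at 0.0533, 0.0933 and 0.04 at the same settings. Beyond the members, FOXP1 changed sign to -0.15 when _s_at and _x_at probe sets were avoided. SOX9 changed from -0.03 to 0.22 without control replicate 3 and was called there. The cause of these differences was not tested. NFIL3, called as lower with all arrays, missed the threshold at 6 settings (adjusted p = 0.0525 to 0.112).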
